A study of Mus musculus with 8 samples.

Results

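The tricarboxylic acid (TCA) cycle genes Cs, Idh3a, Idh3b, Idh3g, Ogdh, Suclg1, Sucla2, Fh1 and Mdh2 were examined in mouse bone mesenchymal stem cells (MSCs). The 9 genes were picked out by symbol, and no measured value was part of that rule. Earlier results of these data were known when the list was chosen. They are 9 of the 53465 gene identifiers in the table, and all 9 passed the filter on low counts, which left 14369 genes. RNA-seq had been performed on 4 hypoxia-cultured samples (2% oxygen) and 4 normoxia-cultured samples (21% oxygen). The cells of both groups came from the hind limb bones of wild-type male C57BL/6N mice of 3 to 5 months, with no transgene or drug. They were grown out of bone fragments at low oxygen and sorted as CD45-/TER-119-/CD140a+/Sca-1+ cells by flow cytometry. The sorted cells were then split, and 1 share was kept in hypoxia while the other was shifted to normoxia for about a week. The hypoxia-cultured cells had therefore been cultured at low oxygen before and after the sort. The comparison concerns a lasting shift to high oxygen in cultured cells.

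The TCA cycle is the set of mitochondrial reactions that oxidises acetyl-CoA, passes the electrons to NAD+ and ubiquinone for respiration, and makes a nucleoside triphosphate directly at the succinyl-CoA step. Citrate made in it can also leave the mitochondria and be split in the cytosol into acetyl-CoA for lipid synthesis and histone acetylation. At low oxygen many cells rely more on glycolysis, and the transcript levels of cycle enzymes are therefore of interest when oxygen changes. Transcript levels do not measure enzyme activity or flux.

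Each sample held between 12898291 and 25132141 counts, with hypoxia replicate 1 the deepest. At these depths 3 counts correspond to 0.119 to 0.233 CPM (counts scaled to the size of the library), and each of the 9 genes had at least 451 counts in every sample. All 12 MSC markers examined were detected, and their summed level was 87340 to 95970 CPM in hypoxia and 60390 to 65350 CPM in normoxia. Most of this sum came from Col1a1 and Col1a2 (30360 to 58350 and 24820 to 34420 CPM over all samples). Of all genes tested, 16.5% were called lower and 18% higher in normoxia. Of the 12 markers, Col1a1 and Eng were called lower and Nt5e, Cd44 and Itgb1 higher. The other 7 were not called. Among them were the sorting markers Ly6a (Sca-1) and Pdgfra (CD140a), with log2 changes (normoxia minus hypoxia) of -0.14 and 0.24. Of 10 blood cell markers, 8 passed the filter, Cd3e had 0 counts and Cd79a 0 to 4. Ptprc, which encodes CD45, had 140 to 263 counts, and Adgre1 and Csf1r were at 64.75 to 148 and 75.1 to 248 CPM. The summed level of the 10 markers was 560 to 1177 CPM in hypoxia and 638 to 1208 CPM in normoxia. Lyz2 was the largest part of it (261 to 691 CPM). In normoxia Lyz2 was called higher and Laptm5 lower, and the other 6 tested were not called. The part of these marker changes in the results was not tested. Of 7 erythroid markers, 6 had 0 counts in every sample, and the 6 endothelial markers summed to 1.62 to 2.65 CPM in hypoxia and 1.28 to 2.09 CPM in normoxia. In bulk samples, a change in the share of a cell type and a change in RNA per cell cannot be told apart.

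As a set, the 9 cycle genes did not move in a shared direction. In normoxia, Idh3a and Sucla2 rose by 21.1% and 21.8%, Idh3g fell by 10.03%, and 6 genes did not pass the test. The test was limma-trend on log2 CPM with p-values adjusted over all 14369 genes by the Benjamini-Hochberg method and a threshold of 0.05. Over all genes, 16.5% were called lower and 18% higher in normoxia, against 1 of 9 and 2 of 9 cycle genes. With scaling by total counts alone, the split over all genes was 1575 lower and 3611 higher, in place of 2378 and 2592. The median log2 change (normoxia minus hypoxia) was -0.016 over the 9 genes and 0.0049 over all genes tested. Summed over the 9 genes, the level was 821 ± 48.5 CPM in hypoxia and 809 ± 37.1 CPM in normoxia (SD, n = 4 each).

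**Figure D1:**
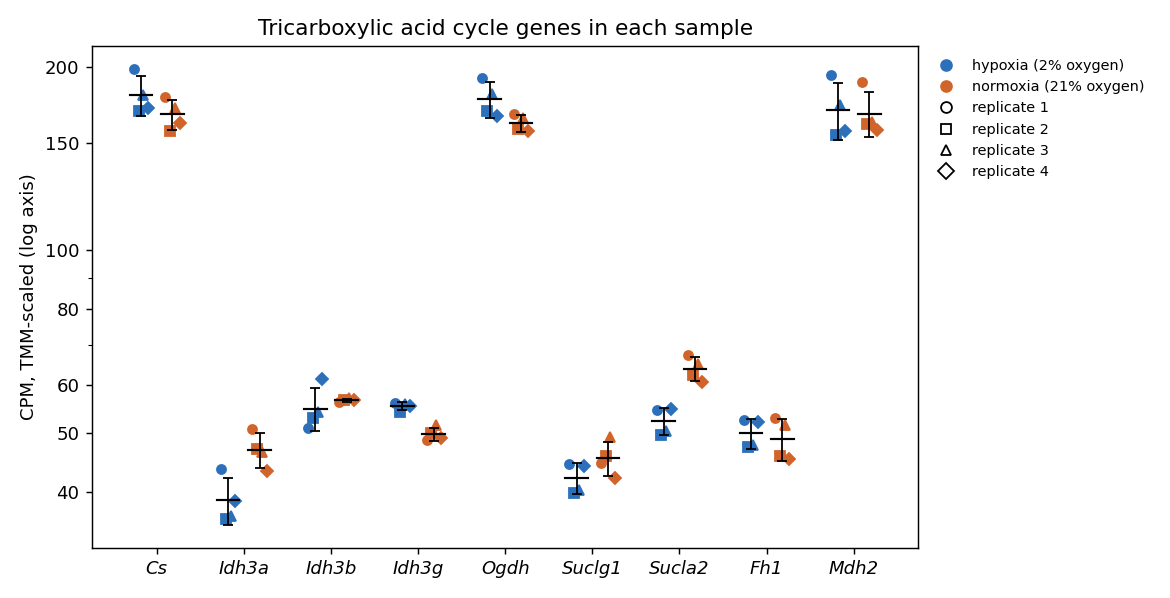
CPM of the 9 cycle genes in each sample, on a log axis (blue, hypoxia; orange, normoxia; the symbol gives the replicate number; horizontal lines and bars, mean ± SD of 4 samples). The hypoxia and normoxia values separate fully for Idh3g and Sucla2 and overlap for the other 7 genes.

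The groups did not overlap for Idh3g, lower in normoxia in every sample, and for Sucla2, higher in every sample. Over all genes, the groups did not overlap for 15.5% (lower) and 17.1% (higher). Samples with the same number were treated as pairs in a further fit, since the sorted cells were split between the conditions. With this block, Idh3g and Ogdh were called lower and Idh3a and Sucla2 higher, where 22.7% of all genes were called lower and 23.3% higher.

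The promoters of the members whose groups did not overlap are shown, since Idh3g fell and Sucla2 rose. RefSeq start sites (GRCm38.p6) were given for 8 of the 9 genes, in 13 windows, 6 of them for Ogdh. The 250 bases before the start of each are printed 5′ to 3′ on the gene's strand, with a match to ACGTG in capitals. ACGTG is a form of the core of the hypoxia response element. Another form, GCGTG, was not searched and is not marked, although it occurs in the Idh3g bases shown. The matches and counts given here are for ACGTG only and do not cover the element as a whole.
Idh3g (chrX:73786898-73787147, minus strand): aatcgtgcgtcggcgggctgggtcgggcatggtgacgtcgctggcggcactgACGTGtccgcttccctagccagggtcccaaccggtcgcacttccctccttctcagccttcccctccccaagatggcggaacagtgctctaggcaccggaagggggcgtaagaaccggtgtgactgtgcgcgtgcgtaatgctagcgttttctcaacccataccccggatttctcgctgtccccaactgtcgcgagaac
Sucla2 (chr14:73552536-73552785, plus strand): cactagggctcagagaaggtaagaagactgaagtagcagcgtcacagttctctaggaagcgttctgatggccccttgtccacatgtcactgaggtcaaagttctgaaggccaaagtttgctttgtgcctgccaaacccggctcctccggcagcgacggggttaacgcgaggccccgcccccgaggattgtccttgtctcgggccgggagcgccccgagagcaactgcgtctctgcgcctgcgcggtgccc
The match before Idh3g begins 198 bases upstream of its start, and the Sucla2 window lies inside the span that GENCODE gives the gene.

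In windows of 300 bases (250 before and 50 after each start), searched on both strands, ACGTG was found for 2 of the 8 genes, Idh3g and Ogdh, and for 21.8% of all 27025 genes with a window. On opposite strands its matches can overlap each other, as in the E-box CACGTG. The core recognised by estrogen-related receptors, AAGGTCA, was found for Ogdh only among the 8, against 5.38% of all genes. The same held for a core recognised by the factor NRF1, written CATGCGC, against 4.41% of all genes. These are matches of letters, which do not show binding.

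The cycle opens with citrate synthase, encoded by Cs (chromosome 10, 128337734 to 128362479, GRCm38), which joins acetyl-CoA and oxaloacetate. Cs was at 199, 169, 180.3 and 171 CPM in hypoxia replicates 1 to 4, and at 179, 157, 171 and 162 CPM in the normoxia replicates. The groups overlapped, although the normoxia value was the lower of the 2 in each of the 4 pairs. The log2 change was -0.10 (SE 0.066, 95% interval -0.25 to 0.040, adjusted p = 0.25). Csl, a gene with 91.9% identity to Cs over 1522 bases, had 0 to 3 counts per sample.

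NAD+-linked isocitrate dehydrogenase, a regulated oxidative step of the cycle, is built from the catalytic alpha subunit and the beta and gamma subunits encoded by Idh3b and Idh3g. Of its 3 genes, Idh3a passed the test upwards, Idh3g downwards and Idh3b did not pass. Idh3a (chromosome 9, 54586334 to 54604661) was at 43.7, 36.2, 36.6 and 38.8 CPM in hypoxia and 50.9, 47.2, 46.6 and 43.4 CPM in normoxia. Only normoxia replicate 4 fell within the hypoxia range, just below hypoxia replicate 1. The rise was 0.28 on the log2 scale (SE 0.078, 95% interval 0.11 to 0.45, adjusted p = 0.016) and was seen in 4 of 4 pairs, by 0.16 to 0.38. The call was lost without hypoxia replicate 3 (adjusted p = 0.052) or normoxia replicate 1 (adjusted p = 0.061).

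Idh3g (chromosome X, 73778963 to 73786897) was at 56.1, 54.2, 56.0 and 55.5 CPM in hypoxia and 48.7, 49.99, 51.5 and 49.2 CPM in normoxia. It varied least between hypoxia replicates among the 9 genes, and every normoxia value lay below every hypoxia value. It fell by 0.15 on the log2 scale (SE 0.055, 95% interval -0.27 to -0.032, adjusted p = 0.049), in 4 of 4 pairs. This call sat at the threshold, and the adjusted p was above 0.05 whenever any 1 of the 8 samples was left out (0.053 to 0.10).

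Idh3b (chromosome 2, 130279309 to 130284547) was at 51.1, 53.0, 54.2 and 61.5 CPM in hypoxia and 56.4, 56.7, 57.1 and 56.7 CPM in normoxia. The hypoxia values spread widely around the narrow normoxia ones. Its exons overlap those of Nop56 on the opposite strand by 5 bases. Its log2 change was 0.049 (SE 0.067, 95% interval -0.095 to 0.19, adjusted p = 0.61).

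To compare subunits independently of library scaling, the log2 ratio of their CPM was taken within each sample. The Idh3a to Idh3g ratio was -0.36, -0.58, -0.61 and -0.52 in hypoxia and 0.062, -0.083, -0.15 and -0.18 in normoxia. Every normoxia sample thus had more Idh3a relative to Idh3g than any hypoxia sample, by a mean of 0.43 (SE 0.078), or 1.35-fold. An exact permutation test over the 70 assignments of the samples gave p = 0.0286, the smallest it can give, and 0.0571 after adjustment over the 10 ratios computed. With a correction for the GC content and length of transcripts, the mean difference was 0.32. The Idh3b to Idh3g ratio was 0.20 higher in normoxia and the Idh3a to Idh3b ratio 0.23 higher, with overlapping groups (exact permutation p = 0.0571 and 0.114, adjusted p = 0.0816 and 0.143). Both ratios were higher in normoxia in 4 of 4 pairs. Idh2, which encodes the mitochondrial NADP+-linked isocitrate dehydrogenase, had a log2 change of -0.22 (adjusted p = 0.064, and 0.004 with the block). It was -0.051 with the GC and length correction (adjusted p = 0.65, and 0.48 with the block as well), and without normoxia replicate 4 it was -0.30 (adjusted p = 0.017). The Idh3a to Idh2 ratio was 0.49 higher in normoxia, also with overlapping groups (exact permutation p = 0.0571, adjusted p = 0.0816), and 0.25 higher with the GC and length correction.

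**Figure D2:**
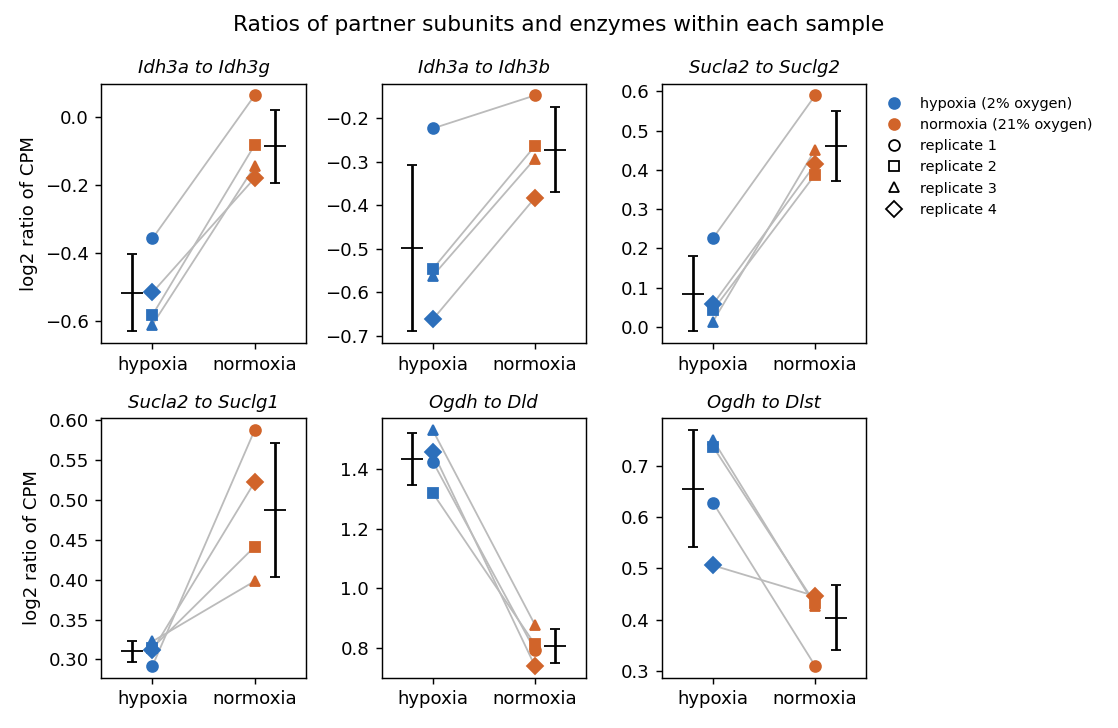
Log2 ratio of CPM between partner genes within each sample, for 6 of the 10 ratios computed (grey lines join samples with the same number; bars, mean ± SD of 4 samples; vertical axes differ). All 4 lines rise for Idh3a to Idh3g, Idh3a to Idh3b, Sucla2 to Suclg2 and Sucla2 to Suclg1, and all 4 fall for Ogdh to Dld and Ogdh to Dlst.

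The alpha-ketoglutarate dehydrogenase complex, which makes succinyl-CoA, joins the Ogdh-encoded first enzyme to the Dlst-encoded succinyltransferase and the Dld-encoded dihydrolipoamide dehydrogenase. Ogdh (chromosome 11, 6291633 to 6356642) was at 192, 169.7, 181 and 166 CPM in hypoxia and 167, 158, 165 and 157 CPM in normoxia. Only normoxia replicate 1 fell within the hypoxia range, just above hypoxia replicate 4, and the normoxia value was the lower in 4 of 4 pairs. The log2 change was -0.13 (SE 0.059, 95% interval -0.26 to 0.0016). Its adjusted p was 0.12, and 0.039 with the replicate block. With the block and a correction for the GC content and length of transcripts together, the change was -0.091 (adjusted p = 0.097).

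Of the partner genes of Ogdh, Dld rose and Dlst did not pass. Dld, whose product is shared with the pyruvate and branched-chain ketoacid dehydrogenases, rose by 41.2%, from 60.3 to 71.4 CPM in hypoxia to 89.8 to 96.5 CPM in normoxia (log2 change 0.50, SE 0.065, adjusted p = 0.00024; 0.30 and adjusted p = 0.0044 with the GC and length correction). Dlst had a log2 change of 0.12 (adjusted p = 0.23). Ogdhl, which encodes an enzyme like that of Ogdh, was at 13.5 to 19.1 CPM in hypoxia and 22.8 to 28.9 CPM in normoxia (log2 change 0.59, SE 0.11, adjusted p = 0.0021). The Ogdh to Dld ratio was 1.424, 1.319, 1.529 and 1.457 in hypoxia and 0.79, 0.81, 0.88 and 0.74 in normoxia. Each normoxia sample thus lay well below each hypoxia sample, with a mean difference of -0.63 (SE 0.052), the largest among the 10 ratios. With the GC and length correction the difference was -0.39 (exact permutation test, adjusted p = 0.0714). The Ogdh to Dlst ratio differed by -0.25 (SE 0.065). In both ratios the groups did not overlap and 4 of 4 pairs were lower in normoxia (exact permutation p = 0.0286 each, adjusted p = 0.0571).

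Succinyl-CoA synthetase pairs the alpha subunit encoded by Suclg1 with a beta subunit that sets the nucleotide. Sucla2 encodes the ADP-dependent beta subunit and Suclg2 the GDP-dependent form. Sucla2 (chromosome 14, 73525319 to 73596142) was at 54.6, 49.7, 50.4 and 54.9 CPM in hypoxia and 67.3, 62.4, 65.0 and 60.8 CPM in normoxia. All normoxia values lay above all hypoxia values. The rise was 0.28 on the log2 scale (SE 0.063, 95% interval 0.15 to 0.42, adjusted p = 0.0043), by 0.15 to 0.37 within the 4 pairs. With the GC and length correction it was 0.13 and missed the threshold (adjusted p = 0.11, and 0.057 with the block as well).

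Suclg1 (chromosome 6, 73248382 to 73276911) was at 44.5, 39.95, 40.3 and 44.2 CPM in hypoxia and 44.7, 45.9, 49.3 and 42.3 CPM in normoxia, with overlapping groups. Its log2 change was 0.11 (SE 0.070, 95% interval -0.046 to 0.26, adjusted p = 0.27). Suclg2 was at 46.6 to 52.8 CPM in hypoxia and 44.6 to 47.6 CPM in normoxia (log2 change -0.092, adjusted p = 0.29), and after GC content and length were corrected for it fell by 0.25 (adjusted p = 0.011). Gm15163, 98.9% identical to Suclg2 over 1302 bases, had 13 to 38 counts per sample.

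The balance of the beta subunits was compared as a ratio. The Sucla2 to Suclg2 ratio was 0.23, 0.042, 0.013 and 0.058 in hypoxia and 0.59, 0.39, 0.45 and 0.41 in normoxia. The 4 normoxia ratios lay above the 4 hypoxia ratios, by a mean of 0.38 (SE 0.066), or 1.30-fold. Against the shared alpha subunit, the Sucla2 to Suclg1 ratio was 0.29 to 0.32 in hypoxia and 0.40 to 0.59 in normoxia, a mean difference of 0.18 (SE 0.043). For both ratios the exact permutation test gave p = 0.0286 and an adjusted p of 0.0571. None of the 10 ratios passed 0.05 after adjustment, and 0.0286 is the smallest p that this number of samples allows. A ratio at this smallest p could not pass alone after adjustment over the 10, so the adjusted test cannot decide on a single ratio.

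Fumarase, encoded by Fh1 (chromosome 1, 175600374 to 175625635), hydrates fumarate to malate and also acts outside mitochondria. Fh1 was at 52.6, 47.4, 47.8 and 52.2 CPM in hypoxia and 53.0, 46.0, 51.6 and 45.4 CPM in normoxia. Its groups overlapped almost fully (log2 change -0.031, SE 0.073, 95% interval -0.19 to 0.13, adjusted p = 0.78).

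Mdh2 (chromosome 5, 135778480 to 135790398), the mitochondrial malate dehydrogenase that regenerates oxaloacetate, was at 194, 155, 173 and 157 CPM in hypoxia and 189, 162, 163 and 158 CPM in normoxia. In both groups replicate 1 was the highest. The log2 change was -0.016 (SE 0.082, 95% interval -0.19 to 0.16, adjusted p = 0.90). The Mdh2 to Mdh1 ratio (mitochondrial to cytosolic enzyme) differed by -0.092 and the Fh1 to Mdh2 ratio by -0.015 (exact permutation p = 0.457 and 0.886, adjusted p = 0.508 and 0.886). The intervals of Fh1 and Mdh2 still allow changes of about the size seen for Idh3g.

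**Figure D3:**
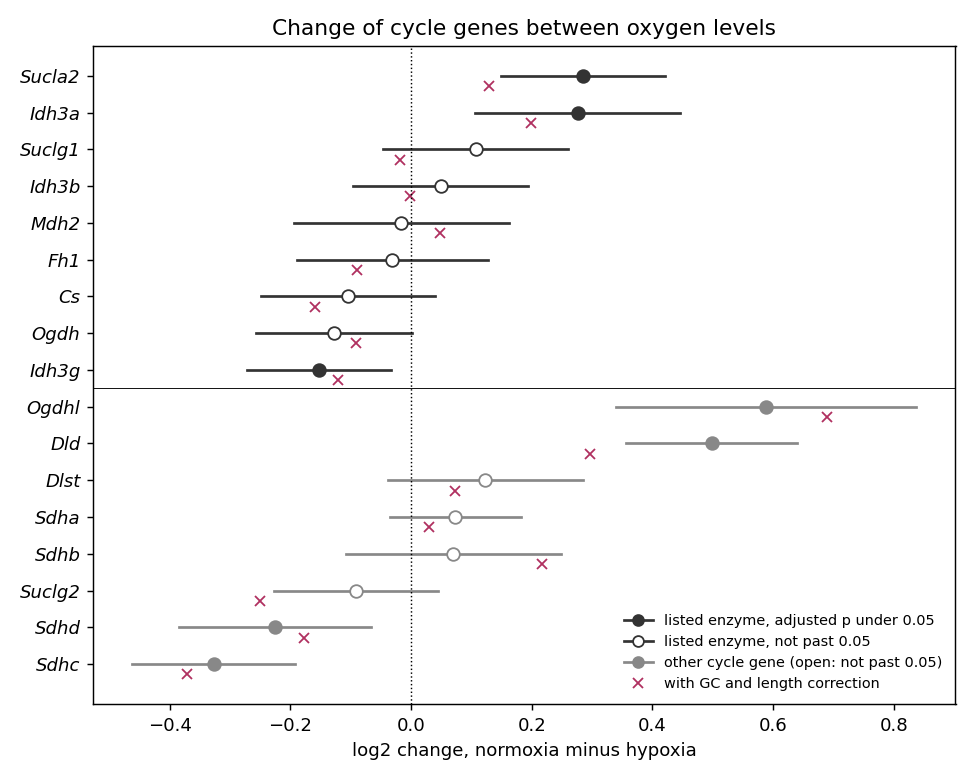
Log2 change (normoxia minus hypoxia) of the 9 listed enzymes (top) and 8 further cycle genes (bottom), with 95% intervals from limma-trend; filled circles passed an adjusted p of 0.05 and crosses give the change after a GC and length correction. Sucla2 and Idh3a lie at 0.28 and Idh3g at -0.15, and the correction brings Sucla2 to 0.13.

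Among 9 other mitochondrial cycle genes listed, 8 were tested, of which 2 rose and 2 fell, beside 18% and 16.5% of all genes tested. Those that rose were Dld and Ogdhl, given above. Those that fell were the membrane anchor subunits of succinate dehydrogenase (respiratory complex II), Sdhc and Sdhd. Sdhc fell by 0.33 on the log2 scale (SE 0.062, adjusted p = 0.0019) and Sdhd by 0.23 (SE 0.073, adjusted p = 0.032). The call of Sdhd was lost without hypoxia replicate 3 or 4 or normoxia replicate 2, 3 or 4 (adjusted p = 0.082, 0.089, 0.079, 0.073 and 0.077). It was also lost in limma-trend with total counts only or no filter on low counts (adjusted p = 0.17 and 0.052). The catalytic subunit genes Sdha and Sdhb had log2 changes of 0.074 and 0.070 (adjusted p = 0.28 and 0.55), and Sdhb rose with the GC and length correction (0.22, adjusted p = 0.038). Of the 4 succinate dehydrogenase assembly factors, Sdhaf2, whose product helps attach FAD to the catalytic subunit, rose by 0.35 (adjusted p = 0.0033; 0.14 and adjusted p = 0.16 with that correction), and Sdhaf1, Sdhaf3 and Sdhaf4 did not pass.

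Of 6 genes of related enzymes (Aco1, Idh1, Idh2, Mdh1, Me1 and Me2), 1 rose and 0 fell, beside 18% and 16.5% of all genes. The 1 that rose was Me1, the cytosolic malic enzyme. Its rise was 0.31 on the log2 scale (limma-trend, adjusted p = 0.0025). With the GC and length correction the rise was 0.16 (adjusted p = 0.047). Aco1 had a log2 change of -0.15 (adjusted p = 0.067, 0.045 with the block, and 0.079 after correcting the blocked fit for GC and length). Of 9 genes whose products fill or drain the cycle, 4 fell and 2 rose, where 16.5% of all genes fell and 18% rose. Pck2, the mitochondrial phosphoenolpyruvate carboxykinase, fell by 0.48 on the log2 scale (adjusted p = 0.00022). The mitochondrial carriers Slc25a1 (citrate), Slc25a10 (dicarboxylate) and Slc25a11 (oxoglutarate) fell by 0.35, 0.51 and 0.32 (adjusted p = 0.0015, 0.0071 and 0.0009). By qRT-PCR with β-actin as the control, the study itself found Slc25a1 transcript levels comparable in hypoxia and normoxia. Glud1, which turns glutamate into alpha-ketoglutarate, rose by 0.18, and Acly, which splits exported citrate, rose by 0.16 (adjusted p = 0.018 and 0.041). The calls of Slc25a1, Slc25a10 and Glud1 were lost with the GC and length correction (adjusted p = 0.11, 0.13 and 0.078), and Slc25a11 fell by 0.18 with it (adjusted p = 0.014). That of Glud1 was also lost without hypoxia replicate 3 or normoxia replicate 1 or 3 (adjusted p = 0.051, 0.075 and 0.065). The call of Acly was lost without hypoxia replicate 3 or 4 or any 1 normoxia sample (adjusted p = 0.071 to 0.15). It was also lost with DESeq2 (adjusted p = 0.058), and in limma-trend with DESeq2 size factors or no filter (adjusted p = 0.052 and 0.07). Pcx, Got1 and Got2 did not pass (log2 changes 0.15, -0.16 and -0.16), and did so with the block (adjusted p = 0.047, 0.049 and 0.012). With the GC and length correction Pcx rose by 0.30 (adjusted p = 0.0023), and Got1 and Got2 were at -0.087 and -0.052 (adjusted p = 0.27 and 0.39 with the block as well). Got1 passed without normoxia replicate 1 (adjusted p = 0.031) and Got2 without hypoxia replicate 2 or normoxia replicate 1 (adjusted p = 0.033 and 0.029). Got2 also passed with DESeq2 (adjusted p = 0.046). In limma-trend it passed with DESeq2 size factors or both samples numbered 1 left out (adjusted p = 0.044 and 0.049). Pcx also passed in limma-trend with total counts only (adjusted p = 0.0072).

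The log2 change of genes between oxygen levels was related to the GC content of their transcripts across the 14353 genes with a value (Spearman's rho -0.39, across genes, which are not independent replicates). The GC content was 43.2% for Sucla2, 46.9% for Idh3a and 50.5% for Idh3g, beside a median of 49.7% for all genes. When GC content and length were removed from each sample, none of the 9 cycle genes was called, where 14.4% of all genes were called lower and 15.1% higher, with Sucla2 at 0.13, Idh3a at 0.20 and Idh3g at -0.12 (adjusted p = 0.11, 0.068 and 0.097). With this correction and the replicate block together, Idh3a rose (0.20, adjusted p = 0.0084) and Cs fell by 0.16 (adjusted p = 0.0036), while Sucla2 and Idh3g missed the threshold (adjusted p = 0.057 and 0.078). In that fit 21.5% of all genes were called lower and 21.7% higher.

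How abundant the 9 transcripts were was compared per length, as log2 CPM per kilobase of merged exons. In hypoxia the order was Mdh2 (5.57 ± 0.15), Ogdh (5.02 ± 0.095), Cs (4.96 ± 0.11), Idh3g (4.36 ± 0.022), Idh3b (4.00 ± 0.12), Fh1 (3.88 ± 0.080), Sucla2 (3.72 ± 0.075), Suclg1 (3.19 ± 0.084) and Idh3a (2.93 ± 0.12; SD, n = 4). The ranges of the neighbours Ogdh and Cs, and of Idh3b and Fh1, overlapped. In normoxia Sucla2 (4.00 ± 0.064) ranked above Fh1 (3.85 ± 0.11) by its mean, with overlapping ranges. The ranges of Sucla2 and Idh3b (4.05 ± 0.0075), of Ogdh and Cs (4.89 ± 0.046 and 4.85 ± 0.083) and of Suclg1 and Idh3a (3.30 ± 0.092 and 3.21 ± 0.094) also overlapped in normoxia. Within isocitrate dehydrogenase the catalytic subunit transcript was thus the least abundant on this scale in both conditions. With the length of the longest transcript, Cs ranked above Ogdh, Idh3b above Idh3g and Sucla2 above Fh1.

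**Figure D4:**
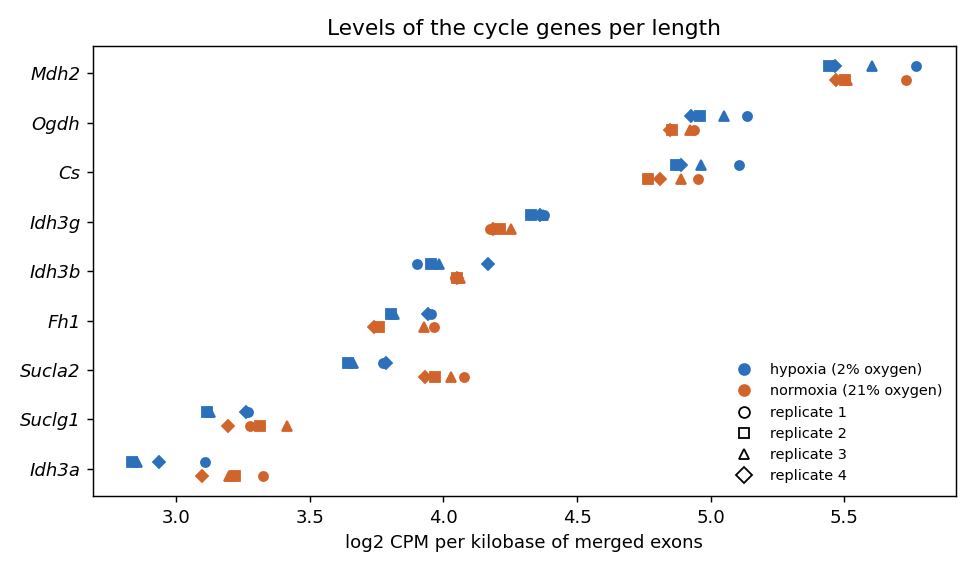
Log2 CPM per kilobase of merged exons for the 9 cycle genes in each sample (blue, hypoxia; orange, normoxia; the symbol gives the replicate number), ordered by the hypoxia mean. Mdh2 is highest at 5.57 and Idh3a lowest at 2.93 in hypoxia, and the Sucla2 mean passes that of Fh1 in normoxia, with overlapping ranges.

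The 9 genes were also compared in how they varied between replicates. After removal of the group means, the correlation of the log2 CPM of 2 genes over the 8 samples had a median of 0.43 over the 36 pairs, and ranged from -0.68 (Idh3b and Ogdh) to 0.95 (Sucla2 and Fh1). Cs, Ogdh and Mdh2, the 3 most abundant, varied together (0.899 to 0.93). The samples share a library each, and these values are given as a description. The mean of the 9 genes, centred over all samples, was highest in the replicates numbered 1 of both groups (0.069 in hypoxia, 0.079 in normoxia) and lowest in hypoxia replicate 2 (-0.091). The highest 2 values thus came from 1 sample of each group. Among 4991 well expressed genes, the ones closest to this mean profile over the 8 samples were Arpc5l and Tubb2a (Pearson's r 0.98 each), Eef1g and Ube2z (0.97 and 0.965) and Cdc37 (0.94). For single members, the closest gene was Dnajb6 for Sucla2, Ptges3 for Idh3a and Cdc42ep1 for Idh3g (0.99 each), values that include the difference between the groups.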

How the data were processed

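Total RNA of 4 hypoxia-cultured and 4 normoxia-cultured MSC samples was sequenced as single-end reads. Alignment and counting by the authors relied on zUMIs, with STAR, featureCounts and samtools (mm10/GRCm38, Ensembl annotation), and they deposited raw counts per gene. Whether counting used strand, introns or multimapping reads is not given in the sources used here. Symbols, positions and lengths were taken from GENCODE M21. The members and gene lists were chosen with earlier results of these data known.

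Genes were kept by filterByExpr (edgeR 4.0.16, minimum count 5), scaled by TMM (factors 0.953 to 1.04), expressed as log2 CPM with a prior count of 3, and tested with limma-trend (limma 3.58.1, R 4.3.3), with Benjamini-Hochberg adjustment over all 14369 genes. Changes are normoxia minus hypoxia. Same-numbered samples deviated together (correlations of 0.17 to 0.47, other numbers -0.22 to 0.076), and the study split sorted cells between the conditions. A fit with the replicate block was therefore added, although the labels do not state that same-numbered samples share a sort. Alternatives were edgeR, DESeq2 1.42.0, limma-voom, other scaling, filters and prior count, a GC and length correction (splines with 5 degrees of freedom), and leaving out samples. The fits by limma-trend (with and without the replicate block), edgeR, DESeq2 and limma-voom were tested on simulated data. The GC and length correction, the other scaling and the other filters were not tested in this way. Genes were named by list, whatever their result, except a few that are not reported here; the genes most alike have a mean log2 CPM of at least 5. Copies of at least 90% identity were searched with blastn 2.17.0. Floors of 3 counts cover counting error only. Replicates are described as biologically independent.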

Additional observations from a re-analysis of the deposited data

Results flagged for a closer look

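In 40 sets of 4 samples examined for a value far from the other 3, 3 were found, where chance gives about 5%, or 2 sets. Mdh2 was at a log2 CPM of 7.57 in normoxia replicate 1, beside 7.30 to 7.35 in the other normoxia samples. In the same sample the Ogdh to Dlst log2 ratio was 0.31, beside 0.43 to 0.45. Hypoxia replicate 1 held 25132141 counts, beside 12929564 to 13219647 in the other hypoxia samples.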

How the results depend on the processing

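Of the 9 cycle genes, the number called lower in normoxia (1, Idh3g) was 0 with DESeq2, total counts only, no filter on low counts, the GC and length correction, or both samples numbered 1 left out, 0 to 0 with each sample left out in turn, and 2 with the replicate block. The number called higher (2) was 0 with the GC and length correction, 1 with that correction and the block together, and 1 to 2 with each sample left out in turn; Idh3a missed the threshold without hypoxia replicate 3 or normoxia replicate 1 (adjusted p = 0.052 and 0.061, limma-trend). The fall of Idh3g missed it in 14 of 20 alternatives (adjusted p 0.038 to 0.40 over all 20), Idh3a in 3 and Sucla2 in 2, both always above 0. With the block, 6610 genes were called in place of 4970, and 4 other cycle genes in both fits. No ratio passed under any alternative, and none could have passed alone after adjustment. By same-numbered pairs, an exact sign-flip test of a ratio cannot go below p = 0.125. Among genes that did not pass, the sign turned with the GC and length correction, with or without the block, for Idh3b (-0.0022), Suclg1 (-0.019), Mdh2 (0.048), Idh1 (-0.030), Mdh1 (-0.018) and Sdhaf3 (-0.10), and for the Mdh2 to Mdh1 ratio (0.065). It turned with total counts only for Fh1 (0.057) and Mdh2 (0.072). With each sample left out in turn, it turned for Mdh2 (-0.088 to 0.051; above 0 without hypoxia replicate 1 or, at 0.0013, normoxia replicate 4), for Sdhb (-0.012 without hypoxia replicate 2, to 0.11) and for the Fh1 to Mdh2 ratio (-0.056 to 0.042; above 0 without hypoxia replicate 2 or 4 or normoxia replicate 1). The cause was not tested. The GC and length correction also removes any true change that follows these properties.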
